A study of Mus musculus with 6 samples.

Results

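The genes described here are 10 transcripts that low oxygen is known to induce, chosen by name and with the glycolytic enzymes left out: Egln1, Egln3, Bnip3, Ddit4, Vegfa, Adm, Car9, Kdm3a, Ankrd37 and Ndrg1. Each name matched 1 of the 25721 genes of the deposited comparison table, and all 10 were among the 15609 genes that passed the filter on low counts and were tested. They were measured by RNA sequencing in the cortical bone of wild-type mouse tibiae, whose ends were cut off and whose marrow was rinsed out before the bone was pulverised. In 3 libraries the mice had eaten a diet with 0.2% adenine by weight, a model of chronic kidney disease, and in the other 3 libraries a control diet without adenine. Both diets ran from 8 weeks of age for 4 weeks, so all mice were 12 weeks old. The libraries are called adenine 1 to 3 and control 1 to 3 after their labels. The labels give no strain or sex, and do not say that each library came from its own mouse, so p-values measure the spread between these libraries. Differences between the diets are given as log2 ratios, adenine over control, ± standard error (SE).

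Cells sense oxygen through the prolyl hydroxylases of the Egln family, which use oxygen to mark the alpha subunits of hypoxia-inducible factor (HIF) for the ubiquitin ligase subunit Vhl and so for degradation. When oxygen is scarce the alpha subunit survives, pairs with Arnt and binds a short DNA element, the hypoxia response element, in the genes it activates. In bone, osteoblasts and osteocytes sit in tissue of low oxygen tension, and HIF is known there for coupling bone formation to blood vessel growth through VEGF.

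None of the 10 genes differed between the diets beyond the spread between libraries, adjusted over all genes (edgeR's quasi-likelihood test, adjusted p from 0.458 to 0.960), and the share of all tested genes that passed was 0%. Ankrd37 and Egln1 were lower on the adenine diet at an unadjusted p under 0.05, which is 2 of 10 genes against 6.49% of all tested genes in that direction and 10.7% in either direction; 0 of 10 were higher at that threshold, against 4.22%. In 1 gene, Ankrd37, every adenine library lay below every control library, where 8.86% of all tested genes did so. In 0 of 10 genes did every adenine library lie above the controls (7.68% of all tested genes), and the other 9 genes overlapped between the diets. Ankrd37 and Car9 passed the filter on low counts, which needs 3 libraries above 0.859 CPM, only with the group in which each is higher: 1 adenine and 3 control libraries were above it for Ankrd37, and 3 adenine and 2 control libraries for Car9. Among the 9 genes other than Ankrd37, 1 was lower at that unadjusted p and 0 had every adenine library below the controls. The median log2 ratio of the 10 was -0.45, with 6 negative and 4 positive, beside a median of 0 to 2 decimals over all tested genes. The authors' deposited table, in which 1.40% of genes have an adjusted p under 0.05, holds 0 of the 10 among them and gives Egln1 a log2 ratio of -1.38 (adjusted p = 0.219) and Ankrd37 one of -1.91 (adjusted p = 0.340).

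**Figure D1:**
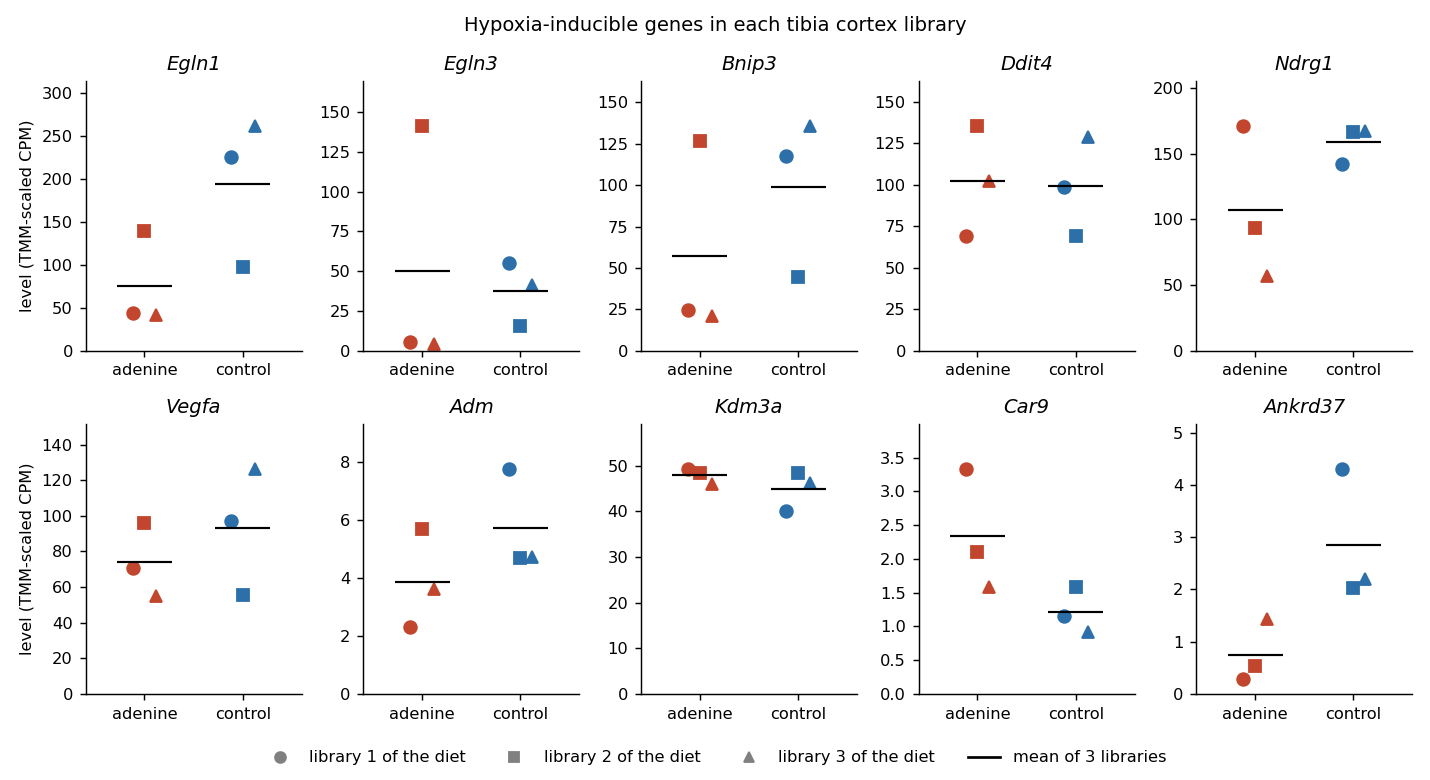
Level of each gene in TMM-scaled CPM (vertical axis, from 0) in the 3 adenine libraries (red, left) and the 3 control libraries (blue, right); symbols mark the library number and lines the mean. In Egln1, Egln3 and Bnip3 adenine 2 stands apart from adenine 1 and adenine 3, Kdm3a is nearly level at 40.1 to 49.3 CPM, and the Ankrd37 points of the diets do not overlap.

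The core of the hypoxia response element reads ACGTG or GCGTG, and it was looked for on both strands in the 250 bases before the transcription start in RefSeq promoters (build GRCm38.p6). A promoter was given for 9 of the 10 genes, Ndrg1 being the one without, and some genes had several starts, 12 in all. ACGTG on either strand occurred in 7 of the 12 promoters, 1 for each of 7 genes, where 16.6% of all 32851 promoters of this length hold it. ACGTG or GCGTG occurred in 9 of the 12 promoters, where 38.6% of all promoters hold either. Shown are those of Egln1, Bnip3 and Egln3, whose levels moved together from library to library. Also shown are those of Ankrd37 and Car9, whose Pearson correlations of log2 CPM with Egln1 were 0.60 and -0.73. Capitals mark each match of either core.
Egln1: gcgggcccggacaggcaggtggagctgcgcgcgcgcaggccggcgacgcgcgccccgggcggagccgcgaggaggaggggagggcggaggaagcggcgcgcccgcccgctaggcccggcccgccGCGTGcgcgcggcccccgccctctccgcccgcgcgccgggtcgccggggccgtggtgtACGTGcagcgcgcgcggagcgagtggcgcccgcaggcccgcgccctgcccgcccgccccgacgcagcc
Bnip3: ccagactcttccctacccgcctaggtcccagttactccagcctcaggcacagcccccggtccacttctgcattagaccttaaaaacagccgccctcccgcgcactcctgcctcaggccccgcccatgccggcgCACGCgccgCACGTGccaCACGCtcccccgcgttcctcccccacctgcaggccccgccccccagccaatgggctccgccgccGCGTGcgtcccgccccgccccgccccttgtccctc
Egln3: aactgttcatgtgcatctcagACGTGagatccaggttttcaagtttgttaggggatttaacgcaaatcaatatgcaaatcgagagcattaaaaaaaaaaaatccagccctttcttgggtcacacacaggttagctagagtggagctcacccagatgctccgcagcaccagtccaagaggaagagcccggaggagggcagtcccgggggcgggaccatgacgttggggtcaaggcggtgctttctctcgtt
Ankrd37: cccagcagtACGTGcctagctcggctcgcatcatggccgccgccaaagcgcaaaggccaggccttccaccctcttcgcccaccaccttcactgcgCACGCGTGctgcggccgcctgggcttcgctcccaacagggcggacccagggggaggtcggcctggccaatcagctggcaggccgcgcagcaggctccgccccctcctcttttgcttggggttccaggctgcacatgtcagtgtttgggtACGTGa
Car9: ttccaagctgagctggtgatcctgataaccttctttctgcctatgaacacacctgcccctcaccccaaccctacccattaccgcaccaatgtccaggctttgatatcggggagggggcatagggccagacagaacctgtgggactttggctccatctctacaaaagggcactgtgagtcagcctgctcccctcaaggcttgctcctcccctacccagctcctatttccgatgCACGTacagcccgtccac
These stretches lie at chr8:124949255-124949504 (Egln1, minus strand), chr7:138909507-138909756 (Bnip3, minus strand), chr12:54203875-54204124 (Egln3, minus strand), chr8:45999851-46000100 (Ankrd37, minus strand) and chr4:43506776-43507025 (Car9, plus strand). Counted from the first base of the match, ACGTG or its reverse complement CACGT began 68 bases before the start of Egln1 and 229 before that of Egln3. It began 18 bases before the start of Car9, and 241 and 6 before that of Ankrd37. In Bnip3 the matches at 108 and 107 bases overlap as CACGTG, which is also the E-box bound by other factors and is found in 6.02% of all promoters. Every promoter shown held ACGTG on 1 strand or the other. So did that of Ddit4 and 1 promoter of Vegfa, which are not shown. Those of Adm and Kdm3a, also not shown, held no ACGTG, but Adm held 2 matches of GCGTG and 1 Kdm3a promoter held 1. Adm and Vegfa also moved with Egln1 (Pearson correlation 0.81 and 0.83). Whether the core goes with moving together was not tested, and a match in the letters does not show that HIF bound there.

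Levels can be compared between genes only per length, for which the deposited FPKM were used. Averaged over the 6 libraries, Ddit4 was the highest at 54.7 FPKM, followed by Egln1 (35.5 FPKM), Bnip3 (32.6 FPKM), Ndrg1 (19.3 FPKM), Vegfa (18.6 FPKM) and Egln3 (15.5 FPKM). Below them came Kdm3a at 5.40 FPKM, Adm at 2.79 FPKM, Ankrd37 at 1.10 FPKM and Car9 at 0.744 FPKM. Of the 9 pairs of neighbours in this order, only Kdm3a and Adm had ranges over the 6 libraries that did not overlap, 4.48 to 6.10 FPKM against 1.45 to 4.39 FPKM. The stress gene Ddit4 was thus the most abundant of the 10 per length, and Vegfa stood in the middle of the order.

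The libraries differed in how much transcript of other tissues they held, and several of the genes moved with it. Total counts ran from 9977694 to 14598010. Bone genes were found in every library. Col1a1, the main collagen chain of bone, was at 5807 to 14838 CPM in the adenine libraries and 5502 to 6303 CPM in the control libraries, and the osteoblast gene Bglap at 141 to 801 and 173 to 616 CPM in that order. Both overlapped between the diets. Dmp1, an osteocyte gene, was lower in every adenine library, at 37.6 to 94.6 CPM in the adenine libraries and 109 to 163 CPM in the control libraries. Of 10 osteocyte markers 9 had negative log2 ratios and 5 were lower at an unadjusted p under 0.05, beside 6.49% of all tested genes. Their sums were 186 to 307 CPM in the adenine libraries and 271 to 676 CPM in the control libraries. The part of osteocytes in the results was not tested. The 18 skeletal muscle markers, of which 0 were at a count of 0 throughout, summed to 4082, 103374 and 8239 CPM in adenine 1, 2 and 3 and to 70473, 27027 and 115797 CPM in control 1, 2 and 3. Adenine 1 and adenine 3 thus held little muscle transcript, less than every control, and adenine 2 as much as the controls. A muscle marker level used as a term of a fit is therefore partly shared with the diet. The 18 kidney tubule markers, with 0 at a count of 0 throughout, summed to 2837, 1003 and 182 CPM in the adenine libraries and 332, 114 and 85.2 CPM in the control libraries, highest in adenine 1. In such bulk samples fewer cells of a type and less RNA per cell cannot be told apart.

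Egln1 encodes the prolyl hydroxylase that does most of the oxygen-dependent marking of HIF alpha in many tissues, and it is itself induced by HIF. The gene (ENSMUSG00000031987, chromosome 8, 125635326 to 125676063 minus strand, in the files' coordinates, whose build is not stated and which were not mixed with those of the promoters) was at 43.5, 140.1 and 41.9 CPM in adenine 1, 2 and 3, against 226, 97.0 and 262 CPM in control 1, 2 and 3. Adenine 1 and adenine 3 lay below all controls, but adenine 2 lay above control 2. The means were 75.2 ± 56.2 CPM on the adenine diet and 195 ± 86.6 CPM on the control diet (SD, n = 3 each). The log2 ratio was -1.38 ± 0.58 (SE; edgeR, unadjusted p = 0.0464, adjusted p = 0.466). With the muscle marker level as a term of the fit it was -0.59 ± 0.29 (unadjusted p = 0.0678). Without adenine 2 it was -2.20, with an adjusted p of 0.0582 over all genes. With 1 library left out the unadjusted p ran from 0.00189 to 0.161 by edgeR and stayed under 0.05 only without adenine 2 or control 2, and with the kidney term it was 0.214.

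Egln3, a smaller hydroxylase of the same family that is strongly HIF-induced, had the most uneven levels of the 10 genes. It (ENSMUSG00000035105, chromosome 12, 54225767 to 54250646, minus strand) was at 5.36, 141 and 4.13 CPM in adenine 1, 2 and 3 and at 55.2, 15.8 and 41.4 CPM in the control libraries. Adenine 2 was thus the highest of all 6 libraries and adenine 1 and adenine 3 the lowest. Within the adenine group the highest library was 34.2 times the lowest, within the control group 3.51 times. The spread of its log2 CPM within groups was larger than that of 99.2% of tested genes. Its log2 ratio was 0.42 ± 1.27 (SE). Without adenine 2 it turned to -3.00 ± 0.58 and passed the threshold (edgeR, adjusted p = 0.0498), as 1.82% of all tested genes did in that direction and 2.03% in either. The direction also turned on log2(FPKM + 1), where it was -0.81. With the muscle term it was 1.02 ± 0.44 (unadjusted p = 0.0491, adjusted p = 0.618), beside 2.84% of all tested genes higher at that unadjusted threshold.

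Bnip3 encodes a receptor of the outer mitochondrial membrane that hands mitochondria to autophagy. The gene (ENSMUSG00000078566, chromosome 7, 138492565 to 138511248, minus strand) was at 24.6, 127 and 20.9 CPM in adenine 1, 2 and 3 and at 117, 44.4 and 136 CPM in control 1, 2 and 3. As with Egln1, adenine 1 and adenine 3 were the lowest libraries and adenine 2 lay among the controls. The log2 ratio was -0.79 ± 0.76 (SE), and it was -2.14 without adenine 2 (edgeR, adjusted p = 0.0695) and 0.09 ± 0.29 with the muscle term. Without adenine 2, 3 of the 10 genes, Egln1, Egln3 and Bnip3, were lower at an unadjusted p under 0.05, against 14.1% of all tested genes. Over the 6 libraries the Pearson correlation of log2 CPM was 0.96 between Bnip3 and Egln1, 0.95 between Bnip3 and Egln3 and 0.84 between Egln1 and Egln3. These are descriptions of 6 points that share the library and its muscle content.

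**Figure D2:**
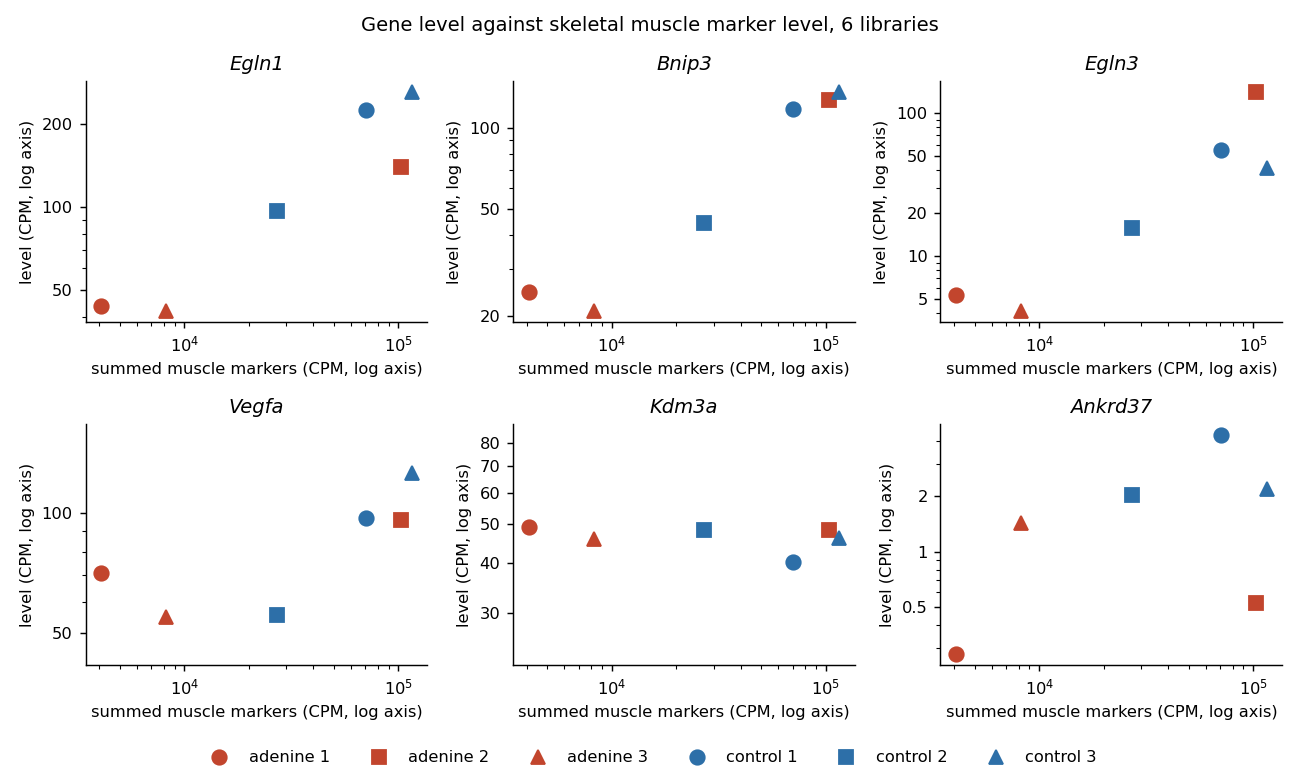
CPM of 6 of the genes (vertical, log axis) against the summed CPM of 18 skeletal muscle markers (horizontal, log axis) in the 3 adenine (red) and 3 control (blue) libraries. Egln1, Bnip3 and Egln3 are lowest in adenine 1 and adenine 3, where the muscle sum is 4082 and 8239 CPM, and high in adenine 2, where it is 103374 CPM; Kdm3a is level and Ankrd37 is lower in adenine 2 than in every control library.

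Ddit4 encodes a stress-induced protein that restrains the growth kinase complex mTORC1 through the TSC proteins. It (ENSMUSG00000020108, chromosome 10, 59785491 to 59787656, minus strand) was at 69.0, 135 and 103 CPM in adenine 1, 2 and 3 and at 98.9, 69.3 and 129 CPM in the control libraries, with the groups covering the same range. The means were 102 ± 33.2 CPM on the adenine diet and 99.0 ± 29.7 CPM on the control diet (SD, n = 3 each). The log2 ratio of 0.05 ± 0.33 (SE) was between -0.22 and 0.29 with 1 library left out and 0.49 ± 0.26 with the muscle term. A difference of the size of that error was not detectable with these libraries.

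Of the secreted factors, Vegfa encodes the main growth factor of blood vessels. It (ENSMUSG00000023951, chromosome 17, 46327919 to 46343295, minus strand) was at 70.6, 96.2 and 55.0 CPM in adenine 1, 2 and 3, against 97.1, 55.7 and 126 CPM in control 1, 2 and 3. The highest library was control 3, and the lowest 2 were adenine 3 and control 2. Its log2 ratio of -0.33 ± 0.35 (SE) ran from -0.60 to -0.04 with 1 library left out, and with the muscle term it was 0.11. Adm encodes adrenomedullin, a vasodilating peptide. The gene (ENSMUSG00000030790, chromosome 7, 110226868 to 110229027, plus strand) was low, at 2.31, 5.67 and 3.60 CPM in the adenine libraries from counts of 25, 54 and 48, against 7.74, 4.67 and 4.71 CPM in the control libraries from counts of 108, 53 and 62. Adenine 2 lay above 2 of the 3 controls, and the log2 ratio was -0.57 ± 0.48 (SE).

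Car9 encodes a cell-surface carbonic anhydrase that helps cells handle acid, and it was the gene with the largest positive estimate. It (ENSMUSG00000028463, chromosome 4, 43506966 to 43513729, plus strand) had only 36, 20 and 21 reads in adenine 1, 2 and 3 and 16, 18 and 12 in the control libraries, or 3.33, 2.10 and 1.58 CPM against 1.15, 1.58 and 0.911 CPM. Adenine 3 and control 2 were at the same level to 2 decimals, and the other adenine libraries were above all controls. This gave a log2 ratio of 0.94 ± 0.61 (SE; edgeR, unadjusted p = 0.163). Without adenine 1, the library with the most kidney marker transcript, it was 0.59, and with the kidney marker level as a term it was 0.30 ± 0.87. Car9 overlaps Gm12454, a long noncoding RNA on the other strand listed at 0.39 to 0.51 FPKM in the adenine libraries and 0.16 to 0.70 FPKM in the control libraries, and without a known strand setting their reads cannot be told apart.

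Kdm3a encodes a histone demethylase that removes methyl groups from lysine of histone H3. It (ENSMUSG00000053470, chromosome 6, 71565956 to 71609974, minus strand) was at 49.3, 48.5 and 46.0 CPM in the adenine libraries and 40.1, 48.4 and 46.3 CPM in the control libraries. The level was among the steadiest in the tissue: only 1.69% of tested genes had a smaller spread of log2 CPM within groups. A log2 ratio of 0.09 ± 0.19 (SE) stayed between 0.03 and 0.15 with 1 library left out.

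Ankrd37 encodes a small ankyrin-repeat protein and is a known direct target of HIF. The gene (ENSMUSG00000050914, chromosome 8, 46449939 to 46458744, minus strand) had 3, 5 and 19 reads in adenine 1, 2 and 3, against 60, 23 and 29 in control 1, 2 and 3. These are 0.277, 0.525 and 1.43 CPM on the adenine diet and 4.30, 2.02 and 2.20 CPM on the control diet, with no overlap between the groups. The means were 0.743 ± 0.605 CPM and 2.84 ± 1.26 CPM in that order (SD, n = 3 each), and the log2 ratio was -1.90 ± 0.77 (SE; edgeR, unadjusted p = 0.0411, adjusted p = 0.458). It was -1.93 with the muscle term, -1.25 with the kidney term and -2.81 to -1.48 with 1 library left out, and negative in each of the 16 alternatives that tested it. The unadjusted p by edgeR was 0.116 with the muscle term, 0.239 with the kidney term and 0.0164 to 0.159 with 1 library left out, under 0.05 only without adenine 3. Ankrd37 overlaps 2 protein-coding genes on the other strand, Ufsp2 and Lrp2bp, and no source used here gives the strand setting of the counting, so a part of its reads could belong to them or have been dropped. Ufsp2 was listed at 6.96, 6.26 and 8.88 FPKM in adenine 1, 2 and 3 and at 6.75, 5.13 and 8.17 FPKM in control 1, 2 and 3. Lrp2bp was listed at 0.130, 3.19 and 0 FPKM and at 2.66, 1.16 and 3.21 FPKM in that order. Their part in the reads of Ankrd37 was not tested.

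Ndrg1 encodes a stress-responsive protein that is abundant in kidney epithelium and in Schwann cells, the myelinating cells of peripheral nerve. It (ENSMUSG00000005125, chromosome 15, 66801167 to 66841489, minus strand) was at 171, 93.3 and 57.0 CPM in adenine 1, 2 and 3 and at 142, 166 and 167 CPM in control 1, 2 and 3. Adenine 2 and adenine 3 lay below all controls, and adenine 1, the library with the most kidney marker transcript, above them. Its log2 ratio was -0.56 ± 0.39 (SE). Without adenine 1 it was -1.08 ± 0.34 (edgeR, unadjusted p = 0.0162, adjusted p = 0.692), beside 4.02% of all tested genes lower at that unadjusted threshold. With the kidney term it was -1.55 ± 0.44 (edgeR, unadjusted p = 0.0106, adjusted p = 0.9998), beside 2.28%. Adenine 1 and adenine 2 had more kidney marker transcript than every control library, so this term is partly shared with the diet. The 10 Schwann cell markers summed to 126, 143 and 180.4 CPM in the adenine libraries and 364, 849 and 782 CPM in the control libraries. Of these markers 9 of 10 were lower in every adenine library, beside 8.86% of all tested genes, and 0 were at a count of 0 throughout. The part of Schwann cells and that of kidney transcript in the level of Ndrg1 were not tested.

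**Figure D3:**
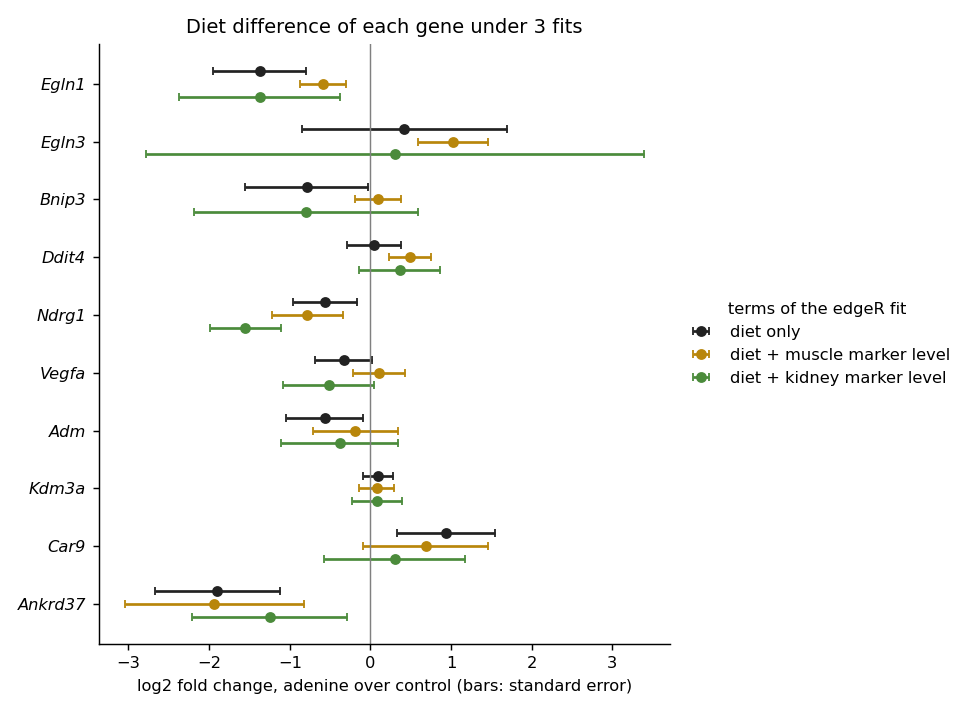
Log2 ratio, adenine over control (horizontal axis; bars, standard error), of each gene from 3 edgeR fits: diet alone (black), with the muscle marker level (gold) and with the kidney marker level (green). The muscle term brings Bnip3 from -0.79 to 0.09 and Egln1 from -1.38 to -0.59 and leaves Ankrd37 near -1.9. The kidney term brings Ndrg1 from -0.56 to -1.55. Both marker levels are partly shared with the diet.

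The protein-coding genes most like Vegfa and Ddit4 from library to library were looked up among 11782 whose mean was 1 FPKM or higher, by the Pearson correlation of log2 CPM over the 6 libraries. For Vegfa they were Lhpp (r = 0.994), Mdm2 (r = 0.988) and Armh3 (r = 0.988). For Ddit4 they were 2610044O15Rik8 (r = 0.996), Cipc (r = 0.990) and Phtf1 (r = 0.985). The log2 ratios of these 6 genes lay between -0.26 and 0.02.

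Among the genes that sense oxygen none passed the test, and Epas1 and Arnt2 had the smallest p. Of 15 HIF subunits and regulators, all tested, 0 passed over all genes, 2 were lower at an unadjusted p under 0.05 (6.49% of all tested genes) and 0 higher (4.22%), and the median log2 ratio was -0.18. Epas1, the alpha subunit prominent in endothelial cells, was at 131, 201 and 117 CPM in the adenine libraries and 295, 264 and 376 CPM in the control libraries. All adenine libraries were thus below all controls, at a log2 ratio of -1.05 ± 0.31 (SE; edgeR, unadjusted p = 0.0103, adjusted p = 0.331). Arnt2, a partner subunit best known from nerve tissue, was at 3.20 ± 2.33 CPM on the adenine diet and 10.9 ± 2.62 CPM on the control diet (SD, n = 3 each). Its log2 ratio was -1.78 ± 0.59 (SE; edgeR, unadjusted p = 0.0183, adjusted p = 0.384). Hif1a, the ubiquitous alpha subunit, had a log2 ratio of -0.06 ± 0.20, Arnt -0.03 ± 0.21 and Vhl -0.04 ± 0.25 (SE). Egln2, the third hydroxylase, had -0.60 and Hif1an, the asparagine hydroxylase that blocks the activity of HIF, -0.81, and neither passed (adjusted p = 0.556 and 0.594). The count of 2 lower genes was 4 without adenine 2, 1 without control 3 and 0 with the kidney term, where the unadjusted p by edgeR was 0.0879 for Epas1 and 0.0602 for Arnt2.

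Several receptors through which Vegfa and Adm act had larger negative estimates than the 2 ligands, a difference that was not tested. Of 9 VEGF-family ligands and receptors other than Vegfa, 4 were lower at an unadjusted p under 0.05 (6.49% of all tested genes) and 0 higher (4.22%), with a median log2 ratio of -0.77 and 0 passing over all genes by edgeR. Kdr, the main signalling receptor of Vegfa, was at 24.0, 36.4 and 24.6 CPM in the adenine libraries and 78.9, 46.1 and 75.0 CPM in the control libraries. All adenine libraries were below all controls, at a log2 ratio of -1.24 ± 0.29 (SE; edgeR, adjusted p = 0.245), and it is among the genes called in the authors' deposited table (adjusted p = 0.0475). The co-receptor Nrp1 had -0.66, and the decoy receptor Flt1 -0.69 with an unadjusted p of 0.0725 by edgeR. The other receptors on the list did not follow: Flt4 had -0.14 ± 0.35, and the co-receptor Nrp2 was positive at 0.45 ± 0.26 (SE). Vegfc, the lymphatic ligand, lay at 7.76, 4.83 and 5.03 CPM on the adenine diet against 16.7, 21.9 and 12.8 CPM on the control diet. Its log2 ratio was -1.54 ± 0.34 (SE), and it is also called in the authors' deposited table (adjusted p = 0.0297). Vegfb, the ligand expressed in muscle and heart, had -1.35, with adenine 2 at 46.9 CPM above control 2 at 40.4 CPM. The count of 4 was 7 without adenine 2 and 2 without any 1 of adenine 1, adenine 3, control 1 or control 3, or with the kidney term.

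Adrenomedullin signals through Calcrl, which needs a Ramp protein as a partner. Of the 8 genes of its family and receptors on the list, 6 were in the table and 5 were tested, and 4 of the 5 were lower in every adenine library (8.86% of all tested genes) and at an unadjusted p under 0.05 (6.49%). This list, like the others, was chosen with earlier results of these data known, so these counts are descriptions. The count at that p was also 4 with each library left out in turn, and 3 with the kidney term, where Calcrl was at 0.0612 by edgeR. Ramp2, the partner that makes Calcrl an adrenomedullin receptor, was at 15.3, 19.8 and 14.2 CPM on the adenine diet and 40.8, 34.9 and 49.7 CPM on the control diet. Its log2 ratio was -1.34 ± 0.24 (SE; edgeR, unadjusted p = 6.52e-04, adjusted p = 0.180), and the authors' deposited table gives an adjusted p of 0.0107. Calcrl itself had -0.93 ± 0.27 (SE), and Ramp1, the partner that makes a receptor for calcitonin gene-related peptide, -1.63 ± 0.37. Ackr3, a scavenging receptor that also takes up adrenomedullin, had -1.48 ± 0.24. The fifth gene, Ramp3, had 0.71 ± 0.66. In the authors' deposited table Ramp1, Ramp2 and Ackr3 are called.

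Endothelial markers were lower in the same libraries as these receptors. The 16 endothelial markers, which include Kdr, summed to 721, 1061 and 716 CPM in adenine 1, 2 and 3 and to 1563, 1535 and 1785 CPM in control 1, 2 and 3, without overlap. Of them 11 lay lower in every adenine library (8.86% of all tested genes) and 12 were lower at an unadjusted p under 0.05 (6.49%). The number at a count of 0 throughout was 0. The part of the endothelial cells in the receptor levels was not tested.

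**Figure D4:**
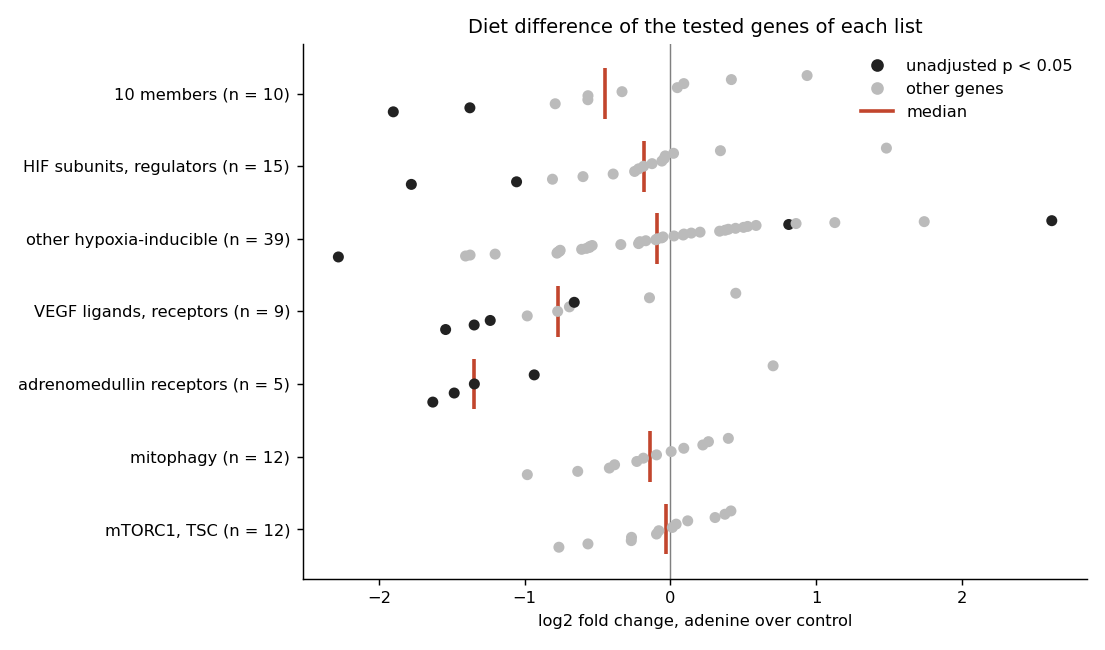
Log2 ratio, adenine over control (horizontal axis), of every tested gene of 7 lists (rows, with the number of genes), where black points have an unadjusted p under 0.05, grey points do not, and red lines mark the medians. The medians are -0.45 for the 10 members, -0.77 for the VEGF ligands and receptors and -1.34 for the adrenomedullin receptors, and within 0.2 of 0 for the remaining lists.

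Other hypoxia-inducible genes outside glycolysis had estimates in both directions. Of 40 such genes 39 were tested. At an unadjusted p under 0.05, 1 was lower, beside 6.49% of all tested genes, and 2 were higher, beside 4.22%. The median log2 ratio was -0.09, with 22 negative and 17 positive. Car12, a membrane carbonic anhydrase like Car9, was at 15.2, 5.98 and 9.16 CPM on the adenine diet and 1.50, 3.08 and 0.380 CPM on the control diet. This was a log2 ratio of 2.62 ± 0.74 (SE; edgeR, adjusted p = 0.306), and the authors' deposited table calls it (adjusted p = 0.0189). Control 3, with 5 reads, lay below the 0.859 CPM of the filter. Like Car9, Car12 thus passed it only with the adenine group, in which it is higher. With the kidney term the log2 ratio was 2.16 ± 0.95 (SE; edgeR, unadjusted p = 0.0602), and with the muscle term 1.92 ± 0.59 (unadjusted p = 0.00960). Osteoclast and kidney cells both use carbonic anhydrases. The 12 osteoclast markers summed to 4509, 4323 and 7579 CPM in the adenine libraries and 2038, 2111 and 2002 CPM in the control libraries, and the part of these cells was not tested. Lox, the collagen cross-linking oxidase, was at 256 ± 80.7 CPM on the adenine diet and 146 ± 18.8 CPM on the control diet (SD, n = 3 each), and Pgf, placental growth factor, at 6.20 ± 1.32 and 10.6 ± 2.37 CPM in that order.

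Of 16 listed paralogs of these genes 15 were tested. At an unadjusted p under 0.05, 1 was lower, Vegfb (6.49% of all tested genes), and 1 higher, Car12 (4.22%). Ddit4l, the muscle-rich relative of Ddit4, was at 6.93, 97.5 and 14.0 CPM in adenine 1, 2 and 3 and at 145, 50.1 and 115 CPM in the controls, lowest where the muscle markers were lowest. Pink1, the kinase that marks damaged mitochondria, had the smallest p of 12 mitophagy and autophagy genes, at a log2 ratio of -0.98 ± 0.57 (SE). It was at 182, 602 and 191 CPM in adenine 1, 2 and 3 and at 753, 369 and 802 CPM in the controls. With the muscle term its log2 ratio was -0.28 ± 0.28 (SE; edgeR, unadjusted p = 0.351). Of these 12 genes, 0 were lower or higher at an unadjusted p under 0.05, beside 10.7% of all tested genes. The same held for 0 of 12 genes of mTORC1 and its inhibitors, where the mTORC1 activator Rheb had -0.27 and Akt1s1, an mTORC1 subunit, -0.76 ± 0.38.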

How the data were processed

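PolyA RNA of flushed tibia cortex was sequenced in 3 libraries from mice on adenine and 3 from mice on control diet, as titled. Tools named in the submitters' processing notes, without a stated role, are featureCounts 1.5.0-p3, HISAT2 2.0.5, edgeR 3.22.5 and DESeq2; no source used here gives the genome build or strand setting. The authors deposited raw counts per gene, a normalized signal (counts divided by 1 factor per library), FPKM, and log2 fold changes with p-values, per the file headers.

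From the deposited counts, genes kept by filterByExpr (minimum count 10) were tested with edgeR 4.0.16 in R 4.3.3 (TMM, robust glmQLFit, two-sided, diet as the only term, Benjamini-Hochberg, threshold 0.05). CPM are TMM-scaled, and standard errors are the absolute log2 ratio over the square root of F. The 10 genes and the lists were chosen with earlier results of these data known, so no p was adjusted over a list. For the same reason the counts of a list beside the share of all tested genes describe the list and do not test it. Named beside the 10 genes are up to 4 genes per pathway list by smallest p and the 3 genes most like Vegfa and Ddit4. Further genes complete a receptor or HIF group (Hif1a, Arnt, Vhl, Flt1, Flt4, Nrp2, Ramp3, chosen after their values were seen). 1 gene that this rule names is not reported here. Muscle and kidney levels are mean log2 CPM of their markers. The fits were run on simulated data with known changes. At the spread of these data edgeR missed most of the simulated 2-fold and 4-fold changes. Both tools called some unchanged genes, DESeq2 more of them. A count of 0 called thus does not show that no gene changed. Alternatives were DESeq2 1.42.0 (Wald test, or its size factors), limma 3.58.1 on log2(FPKM + 1) and log2(FPKM + 0.1), other filters and scalings, covariates, the replicate number as a block, and each library left out.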

Additional observations from a re-analysis of the deposited data

How the results depend on the processing

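Over all genes edgeR called 0 (1671 at an unadjusted p under 0.05). The DESeq2 Wald test called 361, the fit without a filter on low counts 66, limma on log2(FPKM + 1) and on log2(FPKM + 0.1) 1 each, the fit with the muscle level 1, and fits with 1 library left out 0 to 334, the highest without adenine 2. Among the 10 genes the count called was 0 throughout, or 0 to 1 with 1 library left out (Egln3 without adenine 2). The number of genes at an unadjusted p under 0.05, 2 with diet alone (Ankrd37 and Egln1), was 0 with a minimum count of 50, where Ankrd37 and Car9 were not tested, and 0 to 3 with 1 library left out. With the muscle level it was 1, Egln3 in the positive direction, and with the kidney level 1, Ndrg1; neither Ankrd37 nor Egln1 was under 0.05 in these fits. The replicate numbers did not pair the libraries (correlations of deviations -0.04, -0.45 and -0.17), and blocking on them (replicate block) gave 0 at that threshold, 0 called over all genes and 2 of the 9 VEGF genes. Of 166 fold changes of the 10 genes under 17 alternatives, 158 kept direction and side of the threshold and 8 reversed. Egln3 was -0.81 on log2(FPKM + 1), -1.08 on log2(FPKM + 0.1), -1.80 with the block and between -3.00 and 0.96 with 1 library left out; Ddit4 was between -0.22 and 0.29. With the muscle level Vegfa was 0.11, Bnip3 0.094, Map1lc3a 0.10, Sqstm1 0.10 and the median of the 10 genes 0.084. The causes of these changes were not tested. Depth limits Ankrd37, Car9 and Adm, with 3 to 108 reads per library.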

Other observations

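Ddit4 is also a known target of glucocorticoids and of acute stress, and 2 lists of such genes gave values beside its log2 ratio of 0.05. Of 10 glucocorticoid-induced genes, 2 were higher at an unadjusted p under 0.05, beside 4.22% of all tested genes, and 0 were lower, beside 6.49%. By edgeR 0 passed over all genes. Their log2 ratios went both ways, with 6 positive and 4 negative and a median of 0.20. Mt1, a metal-binding metallothionein, was at 78.7, 91.9 and 125 CPM in the adenine libraries and 67.1, 39.2 and 44.1 CPM in the control libraries (log2 ratio 0.98 ± 0.29, SE). Fkbp5, a co-chaperone of the glucocorticoid receptor, had 0.93 ± 0.38, and control 3 at 101 CPM lay above adenine 1 at 91.7 CPM. Of 10 immediate early genes, all had a negative log2 ratio and 7 were lower at an unadjusted p under 0.05, beside 6.49% of all tested genes, with a median of -1.85. In only 3 of the 10 did every adenine library lie below every control library, beside 8.86% of all tested genes. Atf3, a stress-induced transcription factor, was at 4.25, 5.04 and 4.96 CPM in the adenine libraries and 16.3, 8.54 and 43.1 CPM in the control libraries, and the authors' deposited table calls it (adjusted p = 0.0127). Its unadjusted p by edgeR was 0.0694 with the kidney term and 0.0663 with the muscle term.

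Erythroid markers, 11 of the 12 listed, summed to 73821, 54590.3 and 48688 CPM in adenine 1, 2 and 3 and to 44619, 73664 and 10109 CPM in control 1, 2 and 3. Of these markers 0 of 11 were at an unadjusted p under 0.05, beside 10.7% of all tested genes.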
